A study of Mus musculus with 8 samples.

Results

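Genes that answer to unfolded proteins, to a shortage of amino acids and to heat were followed in mouse embryoid bodies on day 9 of differentiation. The set held 41 listed genes in 3 classes: 17 genes of the Atf4 and amino acid response, 13 genes of protein folding in the endoplasmic reticulum, and 11 cytosolic and mitochondrial heat shock genes. A gene entered when 2 or more of the 8 libraries gave its locus a value of 10 or higher, and 40 of the 41 did (16, 13 and 11 by class), among 16623 loci that passed the same filter out of 52281 named loci. Slc7a5 was not analysed here. Embryoid bodies are aggregates grown from embryonic stem cells, and they come to hold cell types of all germ layers. Each of the 4 groups had 2 RNA-seq libraries, and all were on a C57BL/6 background and were collected on day 9. The first knockout was of Prdm16, a gene for a zinc finger regulator of transcription, and was set against a Prdm16 control set labelled wild type. The other knockout removed the PR domain of Prdm16, which the titles place at exon 4, and was set against a PR domain control set, also labelled wild type. The medium of every group held serum, non-essential amino acids, L-glutamine and 2-mercaptoethanol, per the labels' protocols. Neither the clones behind each genotype nor separate cultures behind the replicates are named in the labels. The p-values therefore measure the spread between these libraries, which could be technical, and genotype and clone cannot be told apart.

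Cells answer these stresses through separate regulators. When amino acids run short or unfolded proteins build up in the endoplasmic reticulum, kinases phosphorylate the translation factor eIF2, which lowers protein synthesis in general while translation of Atf4 mRNA increases. The ATF4 protein then activates genes for amino acid synthesis, transport and tRNA charging, together with the stress regulators Ddit3 (CHOP) and Trib3. In the endoplasmic reticulum the sensor IRE1 splices Xbp1 mRNA and the membrane protein ATF6 is cut to release a transcription factor, and both act on chaperone genes. In the cytosol HSF1 binds heat shock elements of chaperone genes such as Hspa1a. ATF4, XBP1 and HSF1 are controlled largely after transcription, so mRNA levels do not measure their activity, and fragments per locus do not separate spliced from unspliced Xbp1.

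The libraries held 6273789 to 9086885 fragments on named loci. Levels below are normalised fragments, the fragments of a locus divided by a size factor per library. Prdm16, the targeted gene, had 11.2 and 1.10 normalised fragments in the Prdm16 knockout libraries, against 24.4 and 26.3 in the Prdm16 control libraries (-2.38 ± 0.50 on the log2 scale, limma adjusted p = 0.000306). It had 23.3 and 15.7 in the PR domain knockout libraries, against 44.6 and 22.7 in the PR domain control libraries (-0.71 ± 0.50, adjusted p = 0.377), and a value per gene does not show the loss of 1 exon. The knockout libraries differ from each other, and the Prdm16 knockout value ranged from -3.65 to -0.69 over the alternatives. Cell type markers moved in both knockouts. Endoderm markers summed to 110786 to 110925 normalised fragments in the Prdm16 knockout, against 53376 to 55466 in the Prdm16 control, and to 21757 to 22243 in the PR domain knockout, against 12871 to 13351 in the PR domain control. No marker gene was at 0 in every library, and in bulk samples fewer cells of a type and less RNA per cell cannot be told apart.

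By length-scaled level, the set ran from some of the most abundant mRNAs of the embryoid bodies to genes near the limit of detection. FPKM values, fragments scaled to transcript length and library depth, allow levels to be compared between genes. The endoplasmic reticulum chaperone genes Hsp90b1 (GRP94) and Hspa5 (BiP) led with means of 817 and 644 FPKM over the 8 libraries, above 99.6% and 99.5% of the tested loci. Hspa8, the constitutive HSP70 gene of the cytosol, followed at 578 FPKM and Calr, a lectin chaperone that also stores calcium, at 568 FPKM. Ranges over the libraries overlapped among the last 3, at 586 to 722 FPKM for Hspa5, 508 to 698 FPKM for Hspa8 and 517 to 645 FPKM for Calr. Atf4 averaged 142 FPKM and Xbp1 55.9 FPKM, against a median of 11.4 FPKM over the tested loci. At the low end stood the heat-inducible HSP70 genes Hspa1b and Hspa1a, at 0.582 and 0.562 FPKM, and the cystine transporter gene Slc7a11 at 0.365 FPKM.

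**Figure D1:**
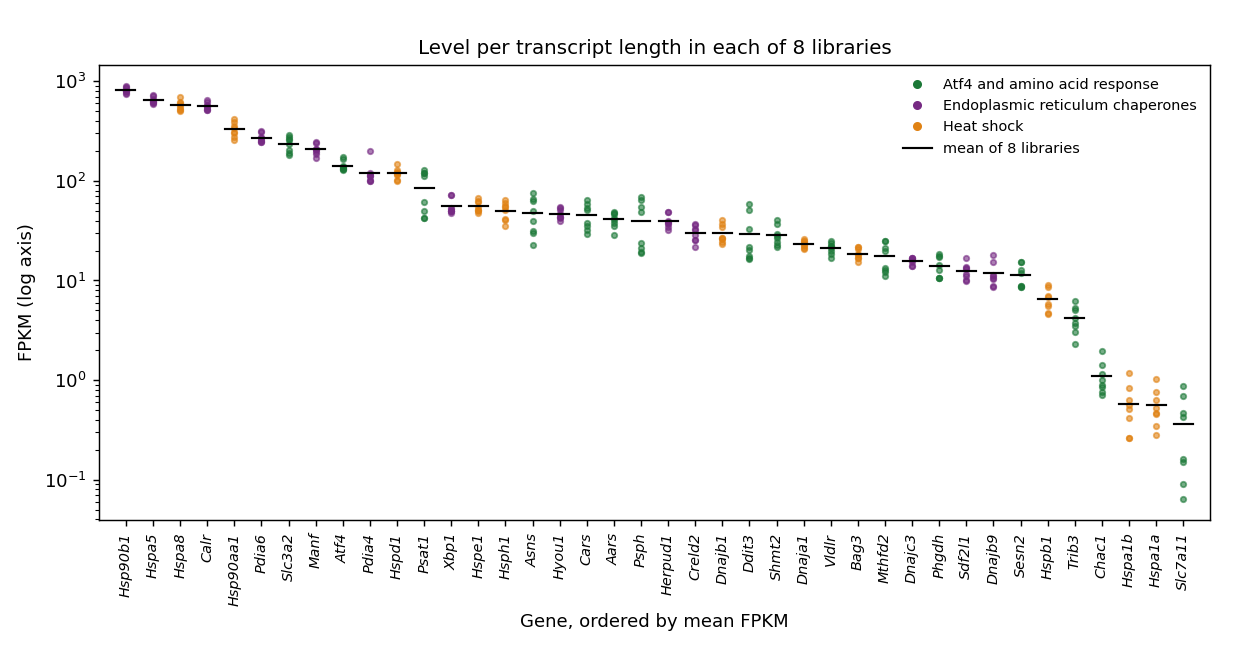
FPKM of each of 40 stress-response genes in the 8 libraries (points, log axis) with the mean of the 8 libraries (black lines), ordered by that mean and coloured by class. Means run from 817 FPKM for Hsp90b1 to 0.365 FPKM for Slc7a11.

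In the Prdm16 knockout, genes of the amino acid response moved in both directions. Called here means a Benjamini-Hochberg adjusted p under 0.05 in limma over all 16623 loci. Among 16 members 3 rose (Atf4, Ddit3 and Psph), 6 fell (Asns, Sesn2, Shmt2, Mthfd2, Cars and Aars) and 7 did not pass. Over all loci 39.1% were called, 18.0% higher and 21.1% lower. The share of higher calls among all calls was 45.9%, but 55% with TMM and 52.9% with DESeq2 scaling. The median log2 fold change of the class was -0.27, beside -0.03 over all loci. All fold changes are differences of log2(value + 1), given ± SE, and for genes with low values they come out smaller than the true change.

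Sequence elements that ATF4 is known to bind were looked for in the promoters, since most genes of the class are described as its targets. RefSeq promoter windows on GRCm38.p6, 250 bases before to 50 after each start, were found for 35 of the 40 members. Those not matched were Cars, Hyou1, Manf, Hspa8 and Hsp90aa1. The core of the amino acid response element, TGATGNAA, was searched on both strands and was present in 6 of 15 genes of this class, against 3.97% of all 32851 windows. It was also present in Herpud1 of the endoplasmic reticulum class and in no heat shock gene. Because Asns and Chac1 are described below and Herpud1 holds elements of both responses, their upstream matches are shown with the core in capitals. They lie at chr6:7693213-7693244 (Asns), chr2:119351037-119351068 (Chac1) and chr8:94386305-94386336 (Herpud1), each read on the minus strand. Counted from the start site, the far end of the core stood at -23, -193 and -112.
Asns: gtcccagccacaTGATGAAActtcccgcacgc
Chac1: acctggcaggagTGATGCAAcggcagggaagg
Herpud1: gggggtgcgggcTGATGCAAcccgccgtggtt
A match describes the letters of the window and is not a measured binding site.

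Atf4 itself, the transcription factor of the response, had 1803 and 1821 normalised fragments in the Prdm16 knockout libraries, against 1521 and 1524 in the Prdm16 control libraries. It had 1459 and 1536 in the PR domain knockout libraries, against 1545.5 and 1481 in the PR domain control libraries. The Prdm16 knockout libraries were above the other 6, which lay close together. The rise was 0.25 ± 0.05 (limma adjusted p = 0.000122), and the PR domain knockout value was -0.02 ± 0.05 (adjusted p = 0.879). Ddit3, which encodes the stress transcription factor CHOP, had 185 and 169 in the Prdm16 knockout libraries, against 116 and 104 in the Prdm16 control libraries. PR domain knockout libraries held 99.6 and 111, against 97.4 and 118 in the PR domain control libraries. Again the Prdm16 knockout libraries stood above the rest, while the PR domain groups overlapped. Ddit3 rose by 0.68 ± 0.14 (limma adjusted p = 0.000303), and was at -0.03 ± 0.14 in the PR domain knockout (adjusted p = 0.934). Its FPKM values were 33.2 and 58.7 in the Prdm16 knockout libraries, against 50.8 and 16.7 in the Prdm16 control libraries, which overlap, and on log2(FPKM + 1) the change of 0.58 did not pass (adjusted p = 0.481). Ddit3 overlaps the tRNA synthetase gene Mars on the opposite strand, and the sources used here do not give the strand setting of the counting.

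Genes of serine and one-carbon metabolism split in the Prdm16 knockout. Psph, phosphoserine phosphatase, which takes the last step of serine synthesis, had 545 and 623 normalised fragments in the knockout libraries, against 385 and 401 in the control libraries, and rose by 0.57 ± 0.09 (limma adjusted p = 1e-05). Shmt2, the mitochondrial enzyme that passes a carbon unit from serine to folate, had 426 and 442 in the knockout libraries, against 599 and 575 in the control libraries, and its change was -0.43 ± 0.08 (adjusted p = 3.01e-05). Neither pair overlapped its control, and the directions were opposite. Mthfd2, the next enzyme of the mitochondrial folate pathway, fell too (-0.32 ± 0.10, limma adjusted p = 0.00981), a call that was lost without knockout replicate 2 (-0.28) and without control replicate 2 (-0.25). The earlier serine enzymes Phgdh and Psat1 were at 0.27 ± 0.14 and 0.01 ± 0.06 and did not pass (adjusted p = 0.128 and 0.937). Psph overlaps the chaperonin gene Cct6a and Shmt2 overlaps Ndufa4l2, in each case on the opposite strand.

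The members Asns, Aars, Sesn2 and Cars fell in the Prdm16 knockout. Asns, asparagine synthetase and a textbook ATF4 target, had 618 and 538 normalised fragments in the knockout libraries, against 862 and 796 in the control libraries. Both knockout libraries were below both controls, with a change of -0.52 ± 0.08 (limma adjusted p = 5.27e-06). Aars, alanyl-tRNA synthetase, had 1416 and 1493 in the knockout libraries, against 1694 and 1809.6 in the control libraries, without overlap (-0.27 ± 0.05, adjusted p = 0.000108), although its locus also carries Exosc6. Sesn2, a leucine sensor that restrains the growth kinase mTORC1, had 311 and 322 in the knockout libraries, against 409 and 429 in the control libraries, and fell (-0.40 ± 0.10, adjusted p = 0.00168). Cars, cysteinyl-tRNA synthetase, was at -0.27 ± 0.08 (adjusted p = 0.00496), a call lost without replicate 1 of the knockout (-0.22) or of the control (-0.25). Of the remaining members, the pseudokinase gene Trib3 was at -0.32 ± 0.21, the glutathione-degrading enzyme gene Chac1 at -0.80 ± 0.39 and Slc7a11 at -0.38 ± 0.47, on few fragments. Slc3a2, the partner of several amino acid transporters, was at 0.06 ± 0.05 and the lipoprotein receptor gene Vldlr at -0.04 ± 0.07. None of these 5 passed, with adjusted p of 0.104 to 0.68.

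In the PR domain knockout 2 members of the amino acid class rose, Asns and Psat1, and 1 fell, Aars, while 13 did not pass. Over all loci 19.2% were called there, 8.48% higher and 10.7% lower. Higher calls made up 44.2% of all calls here, and 54.4% with DESeq2 median-ratio scaling. Asns had 396 and 352 normalised fragments in the PR domain knockout libraries, against 318 and 303 in the PR domain control libraries, and Psat1, phosphoserine aminotransferase, had 672 and 629 in the PR domain knockout libraries, against 588 and 546 in the PR domain control libraries. Both genes were higher in each knockout library than in each control library, with changes of 0.26 ± 0.08 and 0.20 ± 0.06 (limma adjusted p = 0.0199 and 0.0153). Both calls were lost without PR domain knockout replicate 1 (0.18 and 0.15) and without PR domain control replicate 2 (0.23 and 0.14). Aars, with 1242.5 and 1315 in the PR domain knockout libraries, against 1648 and 1705 in the PR domain control libraries, fell by 0.39 on the log2 scale without overlap (adjusted p = 9.22e-07). The uncalled members ran from -0.15 for Sesn2 to 0.91 for Slc7a11, which rested on 31 fragments in the knockout against 13 in the control. The class median was 0.05, beside -0.03 over all loci.

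Effects of the knockouts were then compared by the difference of their log2 fold changes, PR domain knockout effect minus Prdm16 knockout effect. Of the 16623 loci 16.4% differed in this test, 7.81% higher and 8.60% lower. The higher share of these calls was 47.6%, and 63% with total-fragment scaling. In the amino acid class 6 of 16 members differed. Asns (0.78 ± 0.11, limma adjusted p = 8.66e-06), Shmt2 (0.48 ± 0.11) and Cars (0.32 ± 0.11) were positive, and Ddit3 (-0.71 ± 0.20), Psph (-0.49 ± 0.13) and Atf4 (-0.27 ± 0.07) were negative. The Ddit3 (adjusted p = 0.0145) and Cars (adjusted p = 0.0402) differences were lost without 4 and 7 of the 8 libraries in turn, the Psph difference without 2 and the Atf4 difference without 1. On log2(FPKM + 1) the Cars difference was -0.01. For Aars the effects of -0.39 and -0.27 differed by -0.12 ± 0.07, which did not pass (adjusted p = 0.278).

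**Figure D2:**
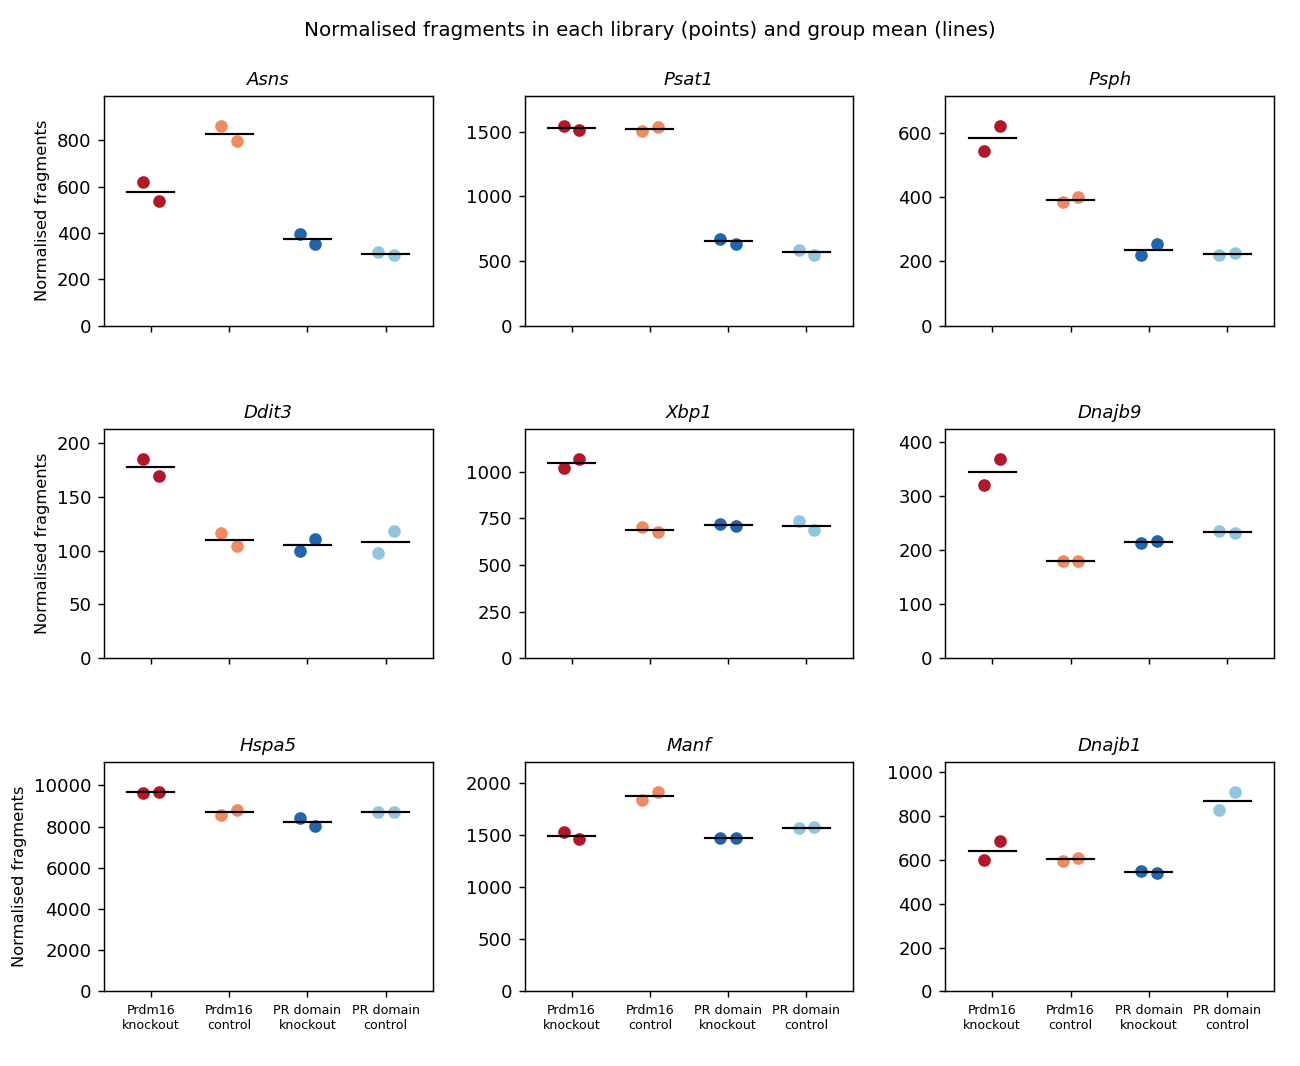
Normalised fragments (linear axes from 0) of 9 stress-response genes in each library of the Prdm16 knockout, Prdm16 control, PR domain knockout and PR domain control, with points for libraries and lines for the means of 2. Xbp1 and Dnajb9 stand highest in the Prdm16 knockout, and Asns and Psat1 are lower in both PR domain groups than in both Prdm16 groups.

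The amino acid class also differed between the wild-type sets, which are the references of the knockout comparisons and so share libraries with them. Set against the Prdm16 control, the PR domain control had 11 of 16 members lower and 0 higher, beside 33.0% of all loci called, 16.3% higher and 16.7% lower. The class median was -0.72, beside 0.00 over all loci. Asns had 318 and 303 normalised fragments in the PR domain control libraries, against 862 and 796 in the Prdm16 control libraries (-1.41 ± 0.08, limma adjusted p = 6.19e-15). Psat1 had 588 and 546 in the PR domain control, against 1505.5 and 1535 in the Prdm16 control (-1.42 ± 0.06, adjusted p = 1.65e-18). Mthfd2 (-1.01 ± 0.10), Trib3 (-1.05 ± 0.21), Psph (-0.81 ± 0.09), Sesn2 (-0.78 ± 0.10), Cars (-0.73 ± 0.08), Shmt2 (-0.69 ± 0.08), Slc3a2 (-0.35 ± 0.05) and Phgdh (-0.49 ± 0.14) were lower as well. Chac1 (-1.03 ± 0.39, adjusted p = 0.0395) was called on 20 fragments in the PR domain control against 44 in the Prdm16 control, and lost its call without any 1 of these 4 libraries. Atf4 (-0.01 ± 0.05), Ddit3 (-0.04 ± 0.14) and Aars (-0.06 ± 0.05) were not among them. Both wild-type sets carry the same genotype label, and set, clone and culture cannot be told apart here. Cell type markers differed between the control sets as well. In the PR domain control 17 of 18 endoderm markers were lower (median -2.36), 10 of 10 macrophage markers were higher (median 1.49), and of 5 pluripotency markers 4 were lower and 1, Klf2, was higher. Higher there too were 18 of 18 immediate early genes (median 1.29), 8 of 11 cardiomyocyte, 8 of 10 fibroblast and 5 of 9 erythroid markers. Of 10 endothelial markers 9 were higher and 1 lower. Among 8 neural progenitor markers 2 were higher and 4 lower. Their part in the difference was not tested.

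**Figure D3:**
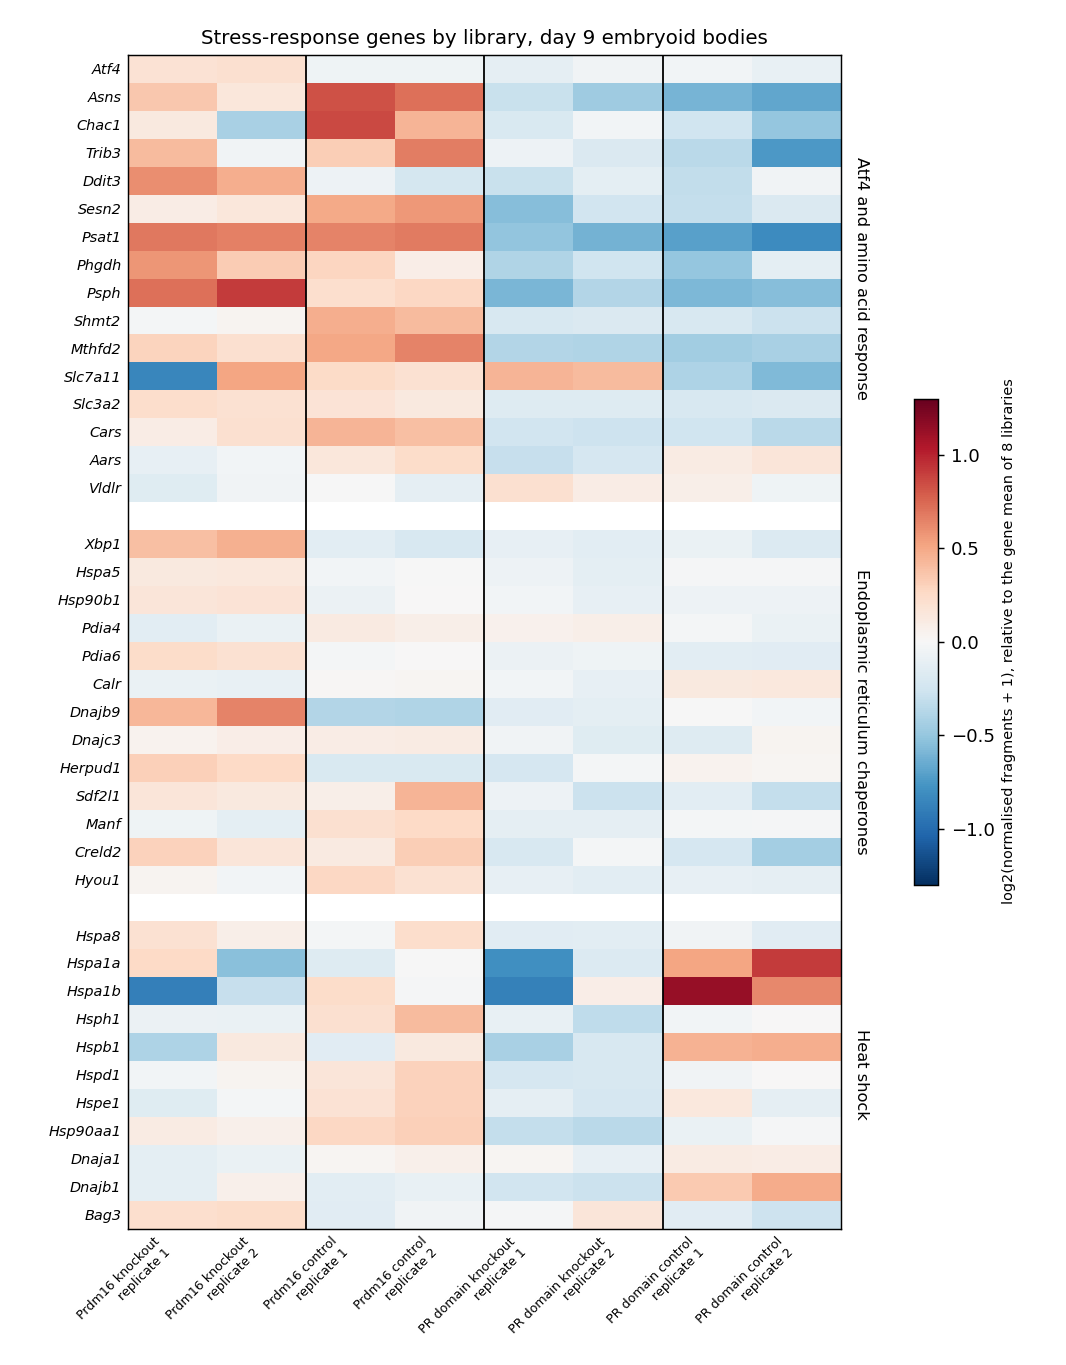
Level of 40 stress-response genes in each library, as log2(normalised fragments + 1) relative to the mean of the gene over the 8 libraries, in 3 classes, with red above and blue below that mean. Asns, Psat1, Psph and Mthfd2 are above their means in all 4 Prdm16 libraries and below in all 4 PR domain libraries, and Xbp1 and Dnajb9 are highest in the Prdm16 knockout.

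Endoplasmic reticulum genes also split in the Prdm16 knockout. Of 13 members, 6 rose (Xbp1, Dnajb9, Herpud1, Pdia6, Hsp90b1 and Hspa5), 4 fell (Manf, Hyou1, Pdia4 and Calr) and 3 did not pass (Dnajc3, Sdf2l1 and Creld2), 76.9% called against 39.1% of all loci. The median log2 fold change was 0.01. The regulator Xbp1 and the Hspa5 cochaperone gene Dnajb9 had the largest rises, and the chaperone genes Hspa5, Hsp90b1 and Pdia6 rose by 0.15, 0.20 and 0.23 on the log2 scale.

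The endoplasmic reticulum stress element, CCAAT and CCACG parted by any 9 bases, was searched in the same promoter windows on both strands. It was present in 6 of the 11 genes of this class with a window (Hspa5, Hsp90b1, Pdia6, Calr, Dnajc3 and Creld2), in no window of the other classes, and in 0.119% of all windows. Of these genes 3 rose, 1 fell and 2 did not pass in the Prdm16 knockout, where 18.0% of all loci were called higher and 21.1% lower. Among class genes whose windows lacked this element, Xbp1, Dnajb9 and Herpud1 rose, Pdia4 fell and Sdf2l1 did not pass. The second form, ATTGG and CCACG parted by any 1 base, was present in Herpud1 and in 0.0365% of all windows. Xbp1 and Dnajb9 held neither form in these windows. The whole Hspa5 window, at chr2:34771840-34772139 on the plus strand, is shown because Hspa5 is the textbook target, with its element in capitals.
Hspa5: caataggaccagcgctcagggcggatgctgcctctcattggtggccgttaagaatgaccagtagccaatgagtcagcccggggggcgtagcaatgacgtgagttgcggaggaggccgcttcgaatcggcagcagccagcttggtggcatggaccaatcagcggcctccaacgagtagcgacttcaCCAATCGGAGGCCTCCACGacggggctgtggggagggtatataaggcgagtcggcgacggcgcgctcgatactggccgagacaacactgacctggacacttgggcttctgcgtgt
For the others, the element is shown in capitals with 12 bases on each side. Hsp90b1 lies at chr10:86705521-86705563, Calr at chr8:84847063-84847105, Dnajc3 at chr14:118937815-118937857 and Pdia6 at chr12:17266479-17266521, all read on the plus strand. Creld2 lies at chr15:88819508-88819550, read on the minus strand, and the second form of Herpud1 at chr8:94386365-94386399 on the plus strand.
Hsp90b1: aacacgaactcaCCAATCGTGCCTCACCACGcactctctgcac
Pdia6: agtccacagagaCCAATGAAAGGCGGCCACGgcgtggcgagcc
Calr: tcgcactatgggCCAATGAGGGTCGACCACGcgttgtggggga
Dnajc3: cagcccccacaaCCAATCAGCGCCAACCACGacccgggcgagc
Creld2: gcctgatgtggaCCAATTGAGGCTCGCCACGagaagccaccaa
Herpud1: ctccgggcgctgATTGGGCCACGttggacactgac
Hsp90b1 held a second match farther from its start.

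Xbp1, whose spliced mRNA encodes the transcription factor that IRE1 activates, had 1019.9 and 1069 normalised fragments in the Prdm16 knockout libraries, against 705 and 675 in the Prdm16 control libraries. It had 720 and 708 in the PR domain knockout libraries, against 734 and 690 in the PR domain control libraries. Only the Prdm16 knockout libraries stood apart, at 1.51 times the control on the fitted scale (0.60 ± 0.06, limma adjusted p = 4.28e-09), while the PR domain groups overlapped (0.00 ± 0.06, adjusted p = 0.975). Dnajb9, a cochaperone of BiP that holds IRE1 in check, had 320 and 369 in the Prdm16 knockout libraries, against 181 and 180 in the Prdm16 control libraries (0.92 ± 0.10, adjusted p = 1.31e-08). It had 214 and 217 in the PR domain knockout libraries, against 236 and 231 in the PR domain control libraries (-0.12 ± 0.10, adjusted p = 0.493). Herpud1, which helps to remove misfolded proteins from the endoplasmic reticulum, had 484 and 468 in the Prdm16 knockout libraries, against 340 and 340 in the Prdm16 control libraries, and rose by 0.48 ± 0.08 (limma adjusted p = 2.2e-05).

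Hspa5 (BiP), the HSP70 chaperone of the endoplasmic reticulum and the sensors' binding partner, had 9641 and 9692 normalised fragments in the Prdm16 knockout libraries, against 8575 and 8795 in the Prdm16 control libraries. The PR domain knockout libraries had 8392.5 and 8035, against 8722.5 and 8707 in the PR domain control libraries. Neither comparison overlapped. In the Prdm16 knockout Hspa5 rose (0.15 ± 0.03, limma adjusted p = 0.000299), and its PR domain knockout value of -0.09 ± 0.03 did not pass (adjusted p = 0.0628). Hsp90b1 (GRP94), the HSP90 of the endoplasmic reticulum, had 11567 and 11719.7 in the Prdm16 knockout libraries, against 9882 and 10416 in the Prdm16 control libraries (0.20 ± 0.03, adjusted p = 1.38e-05). Pdia6, a disulfide isomerase, had 5539.7 and 5378 in the knockout libraries, against 4602.5 and 4719 in the Prdm16 control libraries (0.23 ± 0.04, adjusted p = 8.01e-06). Each of these chaperone genes was higher in both knockout libraries than in both control libraries, by 1.11 to 1.17 times.

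The 4 members that fell in the Prdm16 knockout also code for folding factors. Manf, a secreted and endoplasmic reticulum resident factor that binds BiP, had 1533.5 and 1461 normalised fragments in the knockout libraries, against 1843 and 1919.6 in the control libraries (-0.33 ± 0.05, limma adjusted p = 2.34e-06), and its locus also carries Rbm15b. Hyou1, a nucleotide exchange factor of BiP, had 1648 and 1564.5 in the knockout libraries, against 1936 and 1844 in the control libraries (-0.23 ± 0.05, adjusted p = 0.000272). Pdia4, another disulfide isomerase, had 1934 and 1996 in the knockout libraries, against 2307 and 2243 in the control libraries (-0.21 ± 0.04, adjusted p = 0.000345). None of these pairs overlapped. Calr had 6959 and 6931.5 in the knockout libraries, against 7488 and 7519.5 in the control libraries (-0.11 ± 0.03, adjusted p = 0.00884), a call lost with TMM or DESeq2 scaling, with edgeR, voom and DESeq2's Wald test, and without knockout replicate 2. Dnajc3, a BiP cochaperone, and the folding factors Sdf2l1 and Creld2 were at -0.03 ± 0.07, -0.12 ± 0.16 and 0.01 ± 0.10 and did not pass.

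In the PR domain knockout, 0 members of this class rose and 1 fell, 7.69% called against 19.2% of all loci, with a median of -0.01. By edgeR 3 were called (Calr, Pdia4 and Pdia6). Calr had 7228 and 6850.3 normalised fragments in the PR domain knockout libraries, against 8076.5 and 8146 in the PR domain control libraries, without overlap (-0.21 ± 0.03, limma adjusted p = 2.76e-05). The other 12 lay between -0.16 for Herpud1 and 0.21 for Creld2. The effects of the knockouts differed for 9 of the 13 members, against 16.4% of all loci. Dnajb9 (-1.04 ± 0.14, limma adjusted p = 3.52e-06), Herpud1 (-0.64 ± 0.12), Xbp1 (-0.59 ± 0.09), Hspa5 (-0.24 ± 0.05), Hsp90b1 (-0.20 ± 0.05) and Pdia6 (-0.15 ± 0.05) were lower in the PR domain knockout effect than in the Prdm16 one. Pdia4 (0.33 ± 0.06), Manf (0.24 ± 0.07) and Hyou1 (0.22 ± 0.07) were higher in it. The Pdia6 difference (adjusted p = 0.0469) was lost without 7 of the 8 libraries in turn, and the Manf and Hyou1 differences without 3 and 5 of them. On log2(FPKM + 1) the Pdia4 difference turned to -0.11 and was not called.

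Between the wild-type sets 9 of the 13 endoplasmic reticulum genes differed, 3 higher and 6 lower in the PR domain control than in the Prdm16 control, with a median of -0.14. Of all loci 33.0% were called, 16.3% higher and 16.7% lower. Dnajb9 (0.37 ± 0.10), Herpud1 (0.23 ± 0.08) and Calr (0.11 ± 0.03) were higher. Creld2 (-0.55 ± 0.10), Sdf2l1 (-0.48 ± 0.16), Hyou1 (-0.34 ± 0.05), Manf (-0.26 ± 0.05), Pdia4 (-0.15 ± 0.04) and Pdia6 (-0.14 ± 0.04) were lower, and Xbp1 (0.05 ± 0.06), Hspa5 (0.01 ± 0.03) and Hsp90b1 (-0.03 ± 0.03) did not pass. On log2(FPKM + 1) Pdia4 turned to 0.28, also without a call. The Herpud1 call (adjusted p = 0.0294) was lost without any 1 of the 4 control libraries.

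**Figure D4:**
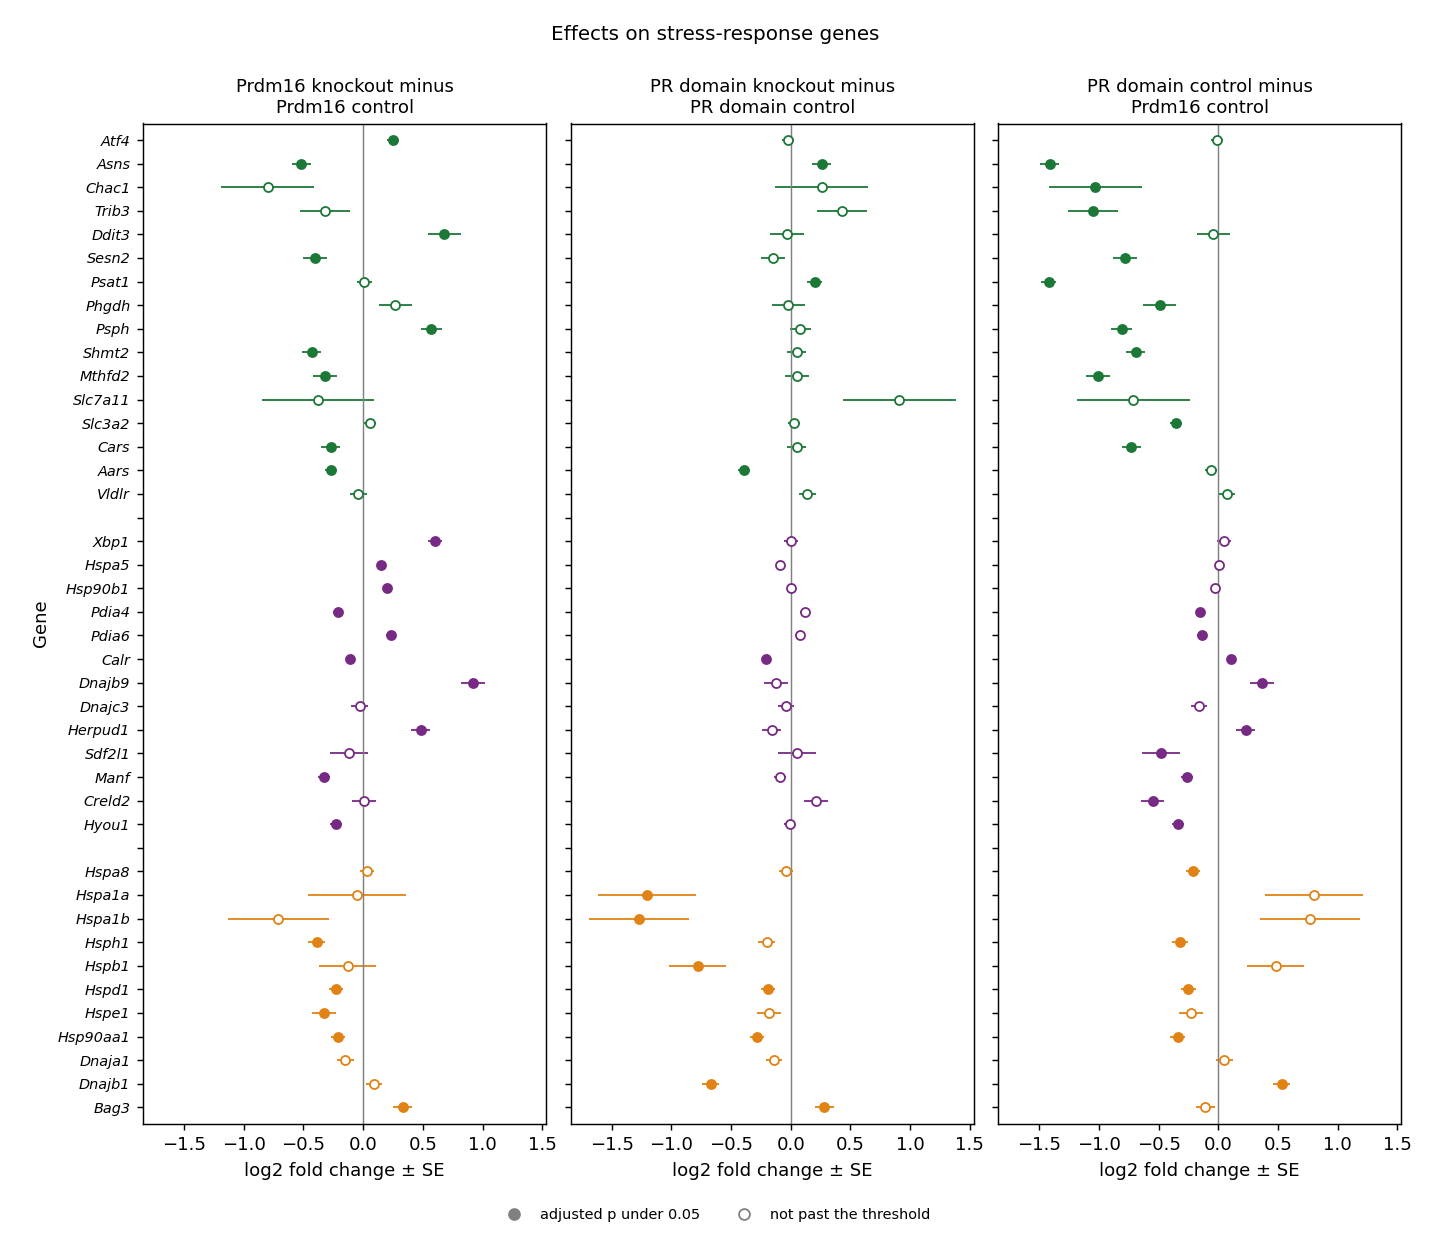
Log2 fold change ± SE of 40 stress-response genes in the Prdm16 knockout, in the PR domain knockout and between the control sets, by class, with filled points for an adjusted p under 0.05. Filled points number 11 in the PR domain knockout, 24 in the Prdm16 knockout and 25 between the control sets. These are 27.5%, 60.0% and 62.5% of the members, beside 19.2%, 39.1% and 33.0% of all loci called in the same order. In the amino acid class all filled points of the control sets are below 0.

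Of 11 heat shock genes in the Prdm16 knockout 1 rose (Bag3), 4 fell (Hsph1, Hspd1, Hspe1 and Hsp90aa1) and 6 did not pass, 45.5% called, near the 39.1% of all loci (18.0% higher and 21.1% lower), with a median of -0.15. That count was 2 with DESeq2's Wald test and 0 on log2(FPKM + 1), settings that also made fewer calls over all loci. In the PR domain knockout 1 rose (Bag3), 6 fell (Hspa1a, Hspa1b, Hspb1, Hspd1, Hsp90aa1 and Dnajb1) and 4 did not pass, 63.6% called against 19.2% of all loci (8.48% higher and 10.7% lower), with a median of -0.20. Hspa1a and Hspa1b, near-identical copies at low values, are counted there as separate genes. The PR domain knockout count was lower under several alternatives. It was 2 with the Wald test and 1 on log2(FPKM + 1), again with fewer calls over all loci. The count also fell when any 1 of these 4 libraries was left out, where calls over all loci fell as well.

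The heat shock element, searched as GAA, TTC and GAA parted by any 2 bases on both strands, was present in 3 of the 9 heat shock genes with a window, in no window of the other classes and in 0.603% of all windows. Hspd1 and Hspe1, the mitochondrial chaperonin genes, lie on opposite strands and overlap at their starts in the annotation. A stretch between the Hspe1 start and the inner Hspd1 start holds 2 overlapping matches, 1 on each strand. The window of the outer Hspd1 start, at chr1:55088194-55088493, held no match. The minus-strand match is shown in capitals at chr1:55088047-55088083, since both genes were lower in the Prdm16 knockout.
Hspd1 and Hspe1: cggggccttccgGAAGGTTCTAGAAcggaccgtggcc
Hsph1 held a match after its start. Hspa1a, Hspa1b, Dnajb1 and Hspb1 had a window and no match to these letters.

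Hspa8, the constitutive cytosolic HSP70, had 2792 and 2562 normalised fragments in the Prdm16 knockout libraries, against 2394 and 2855 in the Prdm16 control libraries, with overlap (0.03 ± 0.06, limma adjusted p = 0.689). The PR domain knockout libraries had 2192 and 2204, against 2346 and 2190.1 in the PR domain control libraries (-0.04 ± 0.06, adjusted p = 0.669), and again overlapped. The heat-inducible copies were low everywhere. Hspa1a had 16.1 and 8.80 in the Prdm16 knockout libraries, against 11.7 and 13.2 in the Prdm16 control libraries. It had 7.18 and 11.6 in the PR domain knockout libraries, against 19.3 and 25.8 in the PR domain control libraries. Hspa1b had 6.20 and 9.90 in the Prdm16 knockout libraries, against 14.8 and 12.2 in the Prdm16 control libraries. Its values were 6.28 and 13.2 in the PR domain knockout libraries, against 28.4 and 19.6 in the PR domain control libraries. For both genes each PR domain knockout library was below each PR domain control library. The genes are near-identical copies whose reads can be split between them, so their sum is the safer value. Together they had 13.5 and 24.8 normalised fragments in the PR domain knockout libraries, against 47.7 and 45.4 in the PR domain control libraries, and fell (-1.20 and -1.27 apart, -1.3 ± 0.31 summed, limma adjusted p = 0.00211). The knockout sum of 45 fragments was 41.6% of the control (95% exact interval 28.4 to 60.1%, counting error only). In the Prdm16 knockout the sum was at -0.33 ± 0.31 (adjusted p = 0.419). The difference of the effects, -0.97 ± 0.43 for the sum, did not pass (adjusted p = 0.129). Taken singly, Hspa1a and Hspa1b lost their calls without PR domain knockout replicate 1 (-0.89 and -0.79) and without either PR domain control library.

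Dnajb1, the HSP40 cochaperone of cytosolic HSP70, had 550 and 538 normalised fragments in the PR domain knockout libraries, against 826 and 910 in the PR domain control libraries. It had 597 and 685 in the Prdm16 knockout libraries, against 594 and 609 in the Prdm16 control libraries. The PR domain control was the high group and the other 3 groups lay together. Dnajb1 fell in the PR domain knockout (-0.67 ± 0.07, limma adjusted p = 1.75e-08), was at 0.09 ± 0.07 in the Prdm16 knockout (adjusted p = 0.348), and was the 1 heat shock member whose effects differed (-0.76 ± 0.10, adjusted p = 1.89e-06). Hspb1, the small heat shock protein HSP25, had 30.5 and 35.6 in the PR domain knockout libraries, against 56.8 and 57.8 in the PR domain control libraries (-0.78 ± 0.24, adjusted p = 0.0212), and the call was lost without any 1 of these libraries. Bag3, a nucleotide exchange factor of HSP70, was higher in each knockout. It had 465 and 472 in the Prdm16 knockout libraries, against 360 and 387 in the Prdm16 control libraries (0.33 ± 0.08, limma adjusted p = 0.00225). It had 395 and 445 in the PR domain knockout libraries, against 360 and 331 in the PR domain control libraries (0.28 ± 0.08, adjusted p = 0.0158), a call lost without replicate 2 of the knockout (0.19) or of the control (0.22).

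Hsp90aa1 and Hspd1 were lower in both knockouts. Hsp90aa1, the inducible cytosolic HSP90, had 1006 and 980 normalised fragments in the Prdm16 knockout libraries, against 1131 and 1159.7 in the Prdm16 control libraries (-0.21 ± 0.06, limma adjusted p = 0.00468). PR domain knockout libraries had 757 and 737, against 884 and 929 in the PR domain control libraries (-0.28 ± 0.06, adjusted p = 0.0005). Neither comparison overlapped. Hspd1, HSP60, had 944 and 987 in the Prdm16 knockout libraries, against 1077 and 1189.8 in the Prdm16 control libraries (-0.23 ± 0.06, adjusted p = 0.00245), and the call was lost without control replicate 2 (-0.16). Its PR domain knockout libraries had 832 and 835, against 935 and 969 in the PR domain control libraries (-0.19 ± 0.06, adjusted p = 0.0197), a call lost without any 1 of these 4 libraries. Its partner Hspe1, HSP10, had 262 and 286 in the Prdm16 knockout libraries, against 333 and 358 in the Prdm16 control libraries (-0.33 ± 0.10, adjusted p = 0.0071), and was at -0.18 ± 0.10 in the PR domain knockout (adjusted p = 0.219). Hspe1 lost its call without knockout replicate 1 (-0.27) and without control replicate 2 (-0.28). Hsph1, an HSP110 that recycles HSP70, had 779 and 770 in the Prdm16 knockout libraries, against 944 and 1092 in the Prdm16 control libraries (-0.39 ± 0.07, adjusted p = 5.78e-05). Its value in the PR domain knockout was -0.20 ± 0.07 (adjusted p = 0.0528), and the HSP40 gene Dnaja1 was at -0.15 ± 0.07 and -0.14 ± 0.07 in the Prdm16 and PR domain knockouts without a call.

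Between the wild-type sets, Dnajb1 was higher in the PR domain control than in the Prdm16 control (0.53 ± 0.07, limma adjusted p = 6.71e-07), and Hsp90aa1 (-0.34 ± 0.06), Hsph1 (-0.32 ± 0.07), Hspd1 (-0.25 ± 0.06) and Hspa8 (-0.21 ± 0.06) were lower. The other 6 heat shock members did not pass. That is 45.5% called, beside 33.0% of all loci, 16.3% higher and 16.7% lower. Fewer members passed without Prdm16 control replicate 2, where calls over all loci fell as well. The Hspa1a and Hspa1b sum was higher in the PR domain control (0.82 ± 0.31, limma adjusted p = 0.0382).

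Other genes of the same pathways were counted from wider lists. Of 44 tested amino acid response genes 9 rose and 11 fell in the Prdm16 knockout (median -0.03), and 2 rose and 5 fell in the PR domain knockout (median 0.00). These are 45.5% called, beside 39.1% of all loci, and 15.9%, beside 19.2%, so both are near the share over all loci. Atf3, a stress-induced and immediate early transcription factor, moved in opposite directions, up in the Prdm16 knockout (1.29 ± 0.06) but down in the PR domain knockout (-0.83 ± 0.06; limma adjusted p = 9.86e-18 and 9.2e-13), and these effects differed (-2.12 ± 0.08). Ppp1r15a (GADD34), which reverses eIF2 phosphorylation, was at 0.83 ± 0.07 and -0.26 ± 0.07 in the same order (adjusted p = 4.24e-11 and 0.00618). The control sets differed for both genes, which were called higher in the PR domain control than in the Prdm16 control. Mean Atf3 was 1984 normalised fragments in the Prdm16 knockout and 811 in its control, and 1036 in the PR domain knockout and 1840 in its control. Mean Ppp1r15a was 993, 558, 668 and 801 in the same order of groups. The haem oxygenase gene Hmox1 rose (0.52 ± 0.06) and the isoleucyl-tRNA synthetase gene Iars (-0.37 ± 0.05), the glutamine transporter gene Slc1a5 (-0.63 ± 0.09) and the cationic amino acid transporter gene Slc7a3 (-1.15 ± 0.19) fell in the Prdm16 knockout. With the PR domain removed, the growth arrest gene Gadd45a (0.86 ± 0.15) and Gclm (0.27 ± 0.09), a subunit of the glutathione synthesis enzyme, rose and the translation repressor gene Eif4ebp1 (-0.30 ± 0.08) fell. The Gclm call was lost without either knockout library (0.23 and 0.31) and without control replicate 1 (0.18). Among the eIF2 kinases, Eif2ak2 (PKR) rose in the Prdm16 knockout (0.44 ± 0.10, limma adjusted p = 0.000899). Eif2ak1 (HRI), Eif2ak3 (PERK) and Eif2ak4 (GCN2) did not pass there (0.00, 0.16 and -0.14), and none of the 4 passed in the PR domain knockout. Atf5, an ATF4 relative, was called in neither knockout (0.02 ± 0.11 for Prdm16, 0.26 ± 0.11 for the PR domain).

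Of 43 other unfolded protein response genes 18 rose and 4 fell in the Prdm16 knockout (median 0.12), and 6 rose and 3 fell in the PR domain knockout (median 0.03). The Prdm16 share was 51.2% called, beside 39.1% of all loci, and the PR domain share of 20.9% was near the 19.2% of all loci. P4hb, the main disulfide isomerase (0.32 ± 0.04), Ero1l, the oxidase that recharges it (0.57 ± 0.07), and Ssr3, a translocon subunit (0.30 ± 0.04), had the smallest adjusted p among the rises in the Prdm16 knockout. Kdelr3 (-0.26 ± 0.04), a retrieval receptor, Dnajc10 (-0.25 ± 0.05), a disulfide reductase, and Mbtps1 (-0.22 ± 0.04), the protease that cuts ATF6, fell there, and all 3 fell in the PR domain knockout too (-0.23 ± 0.04, -0.16 ± 0.05 and -0.35 ± 0.04). The PR domain knockout also had higher Edem1 (0.32 ± 0.06), a factor of misfolded protein removal, Sil1 (0.46 ± 0.10), an exchange factor of BiP, and Sec61a1 (0.17 ± 0.04), the translocon channel. Atf6 itself rose by 0.19 ± 0.07 in the Prdm16 knockout (limma adjusted p = 0.0235), a call lost without knockout replicate 2 and without control replicate 1, and was at -0.02 ± 0.07 in the PR domain knockout. Ern1, which encodes IRE1, was at -0.32 ± 0.14 and -0.10 ± 0.14 without a call.

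Of 41 other heat shock genes 4 rose and 22 fell in the Prdm16 knockout (median -0.15), and 0 rose and 15 fell in the PR domain knockout (median -0.11). The shares called were 63.4%, beside 39.1% of all loci (21.1% lower), and 36.6%, beside 19.2% (10.7% lower). Serpinh1 (0.41 ± 0.03), a collagen chaperone, and Hspb7 (0.96 ± 0.10), a small heat shock gene of heart muscle, rose in the Prdm16 knockout. In the PR domain knockout Hspb7 was called lower and Serpinh1 was not called. Both genes were called higher in the PR domain control than in the Prdm16 control. Hsp90ab1, the constitutive cytosolic HSP90, fell by 0.21 and 0.19 on the log2 scale in the Prdm16 and PR domain knockouts (limma adjusted p = 4.5e-07 and 9.08e-06). Stip1, which links HSP70 to HSP90, was at -0.33 ± 0.05 and -0.31 ± 0.05, Fkbp4, an HSP90 cochaperone, fell in the Prdm16 knockout (-0.30 ± 0.04), and Dnaja2, an HSP40, fell in the PR domain knockout (-0.40 ± 0.05). Hsf1, the heat shock regulator, fell in the Prdm16 knockout (-0.30 ± 0.10, limma adjusted p = 0.0175), a call lost without knockout replicate 2 and without control replicate 1, and was at -0.02 ± 0.10 in the PR domain knockout. Hsf2 was at -0.09 ± 0.07 and 0.00 ± 0.07 and did not pass.

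Other gene groups moved with these classes, where 39.1% (Prdm16 knockout) and 19.2% (PR domain knockout) of all loci were called. Immediate early genes, which are transcribed within minutes of a stimulus or of cell handling, were higher for 16 of 18 genes when Prdm16 was knocked out, and lower for 18 of 18 when the PR domain was. Their summed level was 38963 to 40459 normalised fragments in the Prdm16 knockout, against 19264 to 19394 in the Prdm16 control, and 29723 to 31225 in the PR domain knockout, against 46633 to 47019 in the PR domain control. Atf3 is on that list as well. Of 10 macrophage markers, 9 rose in the Prdm16 knockout, while all 10 rose in the PR domain knockout. They summed to 4025 to 4113 in the Prdm16 knockout, against 1798 to 1886 in the Prdm16 control, and to 9558 to 9662 in the PR domain knockout, against 5078 to 5131 in the PR domain control. Endoderm markers, from cells that secrete much protein, rose for 14 and 15 of 18 genes in the Prdm16 and PR domain knockouts, and cardiomyocyte markers fell in 8 and 9 of 11, with 1 marker of each list moving the other way in each knockout. Cardiomyocyte markers summed to 9148 to 9332 in the Prdm16 knockout, against 10742 to 11204 in the Prdm16 control, and to 11650 to 11697 in the PR domain knockout, against 23717 to 24098 in the PR domain control. Neural progenitor markers fell for 8 of 8 genes in the Prdm16 knockout (median -2.07) and for 4 of 8 in the PR domain knockout. Of 10 endothelial markers 5 fell and 2 rose in the Prdm16 knockout, and 10 fell in the PR domain knockout. Of 9 erythroid markers 5 rose and 1 fell in the Prdm16 knockout, and 7 rose in the PR domain knockout. Fibroblast and mesenchyme markers rose for 6 and 8 of 10 genes in the Prdm16 and PR domain knockouts and fell for 2 in each. They summed to 146977 to 150139 in the Prdm16 knockout, against 109769 to 110363 in the Prdm16 control. In the PR domain knockout the sum was 181277 to 184048, against 145204 to 145997 in the PR domain control. Among 5 pluripotency markers 1 rose and 2 fell in the Prdm16 knockout, and 2 rose and 2 fell in the PR domain knockout. The part of these groups in the results above was not tested.

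Fewer members were called on the deposited FPKM values. Of the 24 members called in the Prdm16 knockout, 5 were also called on log2(FPKM + 1), which were Atf4, Shmt2, Xbp1, Pdia6 and Dnajb9, and of the 11 called in the PR domain knockout 1 was, Dnajb1. The ratio of FPKM to normalised fragments varied between libraries for the same gene, by a median of 1.16 times over the 40 members and by 11.49 times for Slc7a11. Apart from that scale, 18 of the 24 Prdm16 knockout calls and 4 of the 11 PR domain knockout calls (Aars, Calr, Dnajb1 and Hsp90aa1) were made under every alternative tried. Read assignment is a further limit, since 16 of the 40 members overlap a gene on the opposite strand and 2 share their locus with another protein-coding gene.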

How the data were processed

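The 8 libraries were RNA-seq libraries in 4 groups of 2, from the labels. Per the submitters' processing notes, TopHat2 2.1.1, SAMtools 1.5, deepTools and Cufflinks 2.2.1 were used with mm10, and the sources used here do not give the annotation or strand setting. The first deposited table held a normalised signal per locus, the fragments divided by a size factor per library by the authors' processing, and whole reads were recovered for 99.992 to 100.0% of values within 0.1 of a whole number. The second deposited table held FPKM. Totals of 6273789 to 9086885 fragments limit precision to counting error at low loci. Of 53068 distinct loci, 787 named no gene and held 1.88 to 2.53% of fragments. These were left out.

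Loci at 10 or higher in 2 or more libraries (16623) were tested with limma 3.58.1 in R 4.3.3, with an intensity trend, on log2(value + 1), with the 4 group means fitted over all 8 libraries and Benjamini-Hochberg adjustment. The residual degrees of freedom were 4, with 25.4 added from the prior. Contrasts were each knockout minus its control, the difference of these effects, and the PR domain control minus the Prdm16 control. The test was also run on simulated data in which few loci changed, which cannot show how it behaves where many loci differ, as here. edgeR 4.0.16 on the recovered fragments made 6470 and 3418 calls in the Prdm16 and PR domain knockouts. DESeq2 1.42.0, voom, other scalings and filters, FPKM, a replicate block and leaving out each library were alternatives. In the replicates' check, chi-square per degree of freedom was 1.4 to 2.23, so no replicates were copies. Promoter windows came from RefSeq on GRCm38.p6, and overlaps from GENCODE M21. Intervals are exact and cover counting error only.

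The members and all lists were chosen with earlier results of these data known. All members are named, and other pathway genes are the 3 with the smallest adjusted p in each direction and list, with the regulators. A gene that this rule names and a promoter stretch are not reported here.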

Additional observations from a re-analysis of the deposited data

Results flagged for a closer look

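Each of the following genes had an effect in the PR domain knockout that differed from that in the Prdm16 knockout in limma's test of the difference (PR domain knockout effect minus Prdm16 knockout effect, log2 scale, adjusted p under 0.05). Of all loci tested 16.4% did so. In the amino acid response Asns was at 0.78 ± 0.11, Shmt2 at 0.48 ± 0.11 and Cars at 0.32 ± 0.11. Ddit3 was at -0.71 ± 0.20, Psph at -0.49 ± 0.13 and Atf4 at -0.27 ± 0.07. In the endoplasmic reticulum class Pdia4 was at 0.33 ± 0.06, Manf at 0.24 ± 0.07 and Hyou1 at 0.22 ± 0.07. Dnajb9 was at -1.04 ± 0.14, Herpud1 at -0.64 ± 0.12, Xbp1 at -0.59 ± 0.09, Hspa5 at -0.24 ± 0.05, Hsp90b1 at -0.20 ± 0.05 and Pdia6 at -0.15 ± 0.05. Among heat shock genes Dnajb1 was at -0.76 ± 0.10. The knockouts were set against different control sets, in which Dnajb1, Dnajb9 and Asns themselves differed by 0.53, 0.37 and -1.41 (PR domain control minus Prdm16 control). Psph, Cars, Shmt2, Hyou1, Manf, Pdia4 and Pdia6 were also called lower in the PR domain control, and Herpud1 was called higher. Atf4, Ddit3, Xbp1, Hspa5 and Hsp90b1 were not called between the control sets.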

How the results depend on the processing

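Over the 76 called member results and their 1385 alternatives, 1195 kept direction and call, 187 lost the call and 3 changed sign. The sign changes were all on log2(FPKM + 1): the Cars difference at -0.01, the Pdia4 difference at -0.11 and Pdia4 between the control sets at 0.28. The cause was not tested.

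In limma 6502 loci were called in the Prdm16 knockout, 3190 in the PR domain knockout, 2728 for the difference and 5481 between control sets. DESeq2's Wald test called 3983, 1797, 1179 and 3388 in the same order. On log2(FPKM + 1) they were 2244, 582, 199 and 1717, and the difference called 1642 with no filter. On FPKM the amino acid, endoplasmic reticulum and heat shock counts were 2, 3 and 0 in the Prdm16 knockout (main 9, 10 and 5) and 0, 0 and 1 in the PR domain knockout (main 3, 1 and 7). They were 0, 1 and 0 for the difference (main 6, 9 and 1), and between control sets the endoplasmic reticulum and heat shock counts were 1 and 1 (main 9 and 5). With the Wald test the heat shock count was 2 in each knockout, the amino acid difference 3 and the endoplasmic reticulum count between control sets 5. With no filter the PR domain knockout called 1 amino acid and 2 heat shock genes, and the difference 3 amino acid genes. The PR domain endoplasmic reticulum count was 3 with TMM, DESeq2 or total-fragment scaling, edgeR and voom, and 2 with a minimum of 50.

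Leaving out each library in turn gave 5028 to 5422 loci in the Prdm16 knockout, 2180 to 2449 in the PR domain knockout, 1950 to 2390 for the difference and 4047 to 4231 between control sets. In the PR domain knockout the counts were 1 to 3, 1 to 2 and 2 to 4 by class. The difference ranged over 3 to 5 amino acid and 1 to 2 heat shock genes, and the control sets over 2 to 6 heat shock genes.

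Same-numbered replicates of knockout and control had deviations correlated at -0.127 (Prdm16) and 0.012 (PR domain). Across the sets the values ran from -0.176 to 0.127. Such correlations cannot show whether replicates shared a batch. With a replicate block 6438, 3149, 2686 and 5442 loci were called, and 8 endoplasmic reticulum genes differed in place of 9. Within the Prdm16 groups alone the block called 6668 loci and the crossed pairing 6528, a pairing chosen after seeing the data. Without members sharing a locus with another protein-coding gene, also chosen after seeing the data, the Prdm16 knockout counts were 8 and 9. With 2 libraries a group, low genes such as Hspa1a, Chac1 and Slc7a11 are limited by depth.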

Other observations

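Between the wild-type sets, 26 of 44 other amino acid response genes were lower in the PR domain control than in the Prdm16 control and 7 were higher, with a median log2 fold change of -0.28. That is 75.0% called, beside 33.0% of all loci, 16.3% higher and 16.7% lower. The genes named next were chosen after their values were seen. Slc7a3, a cationic amino acid transporter gene, was at -3.13 ± 0.19, Gars, glycyl-tRNA synthetase, at -0.67 ± 0.05 and Iars, isoleucyl-tRNA synthetase, at -0.50 ± 0.05. The secreted stress factor gene Stc2 was at -1.48 ± 0.18. The transporter genes Slc7a1 (-0.14 ± 0.09) and Slc6a9 (-0.28 ± 0.23) did not pass. Among other heat shock genes, the cytosolic chaperonin genes Cct2, Cct3, Cct4, Cct5 and Cct8 fell in both knockouts, with changes of -0.11, -0.20, -0.13, -0.10 and -0.15 in the Prdm16 knockout and -0.17, -0.19, -0.17, -0.15 and -0.22 in the PR domain knockout. Of the other subunits listed, Cct7 passed in neither knockout (-0.09 for Prdm16, -0.07 for the PR domain), and Tcp1 passed only in the PR domain knockout (-0.21), with 0.02 in the Prdm16 knockout. These genes were also singled out after their values were seen. For comparison, 21.1% of all loci were called lower with Prdm16 knocked out, and 10.7% with the PR domain removed. TMM scaling moved the median log2 fold change over all loci from -0.031 to 0.018 for Prdm16. For the PR domain that median moved from -0.028 to -0.001. Calls of these subunits under other scalings are not reported here. Calr, at -0.11 in the Prdm16 knockout, lost its call with TMM scaling.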
